A study of Homo sapiens with 3 samples.

Results

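Expression of 10 genes that mark or direct myeloid cells was examined in SupB15, an established B-cell precursor acute lymphoblastic leukemia (ALL) line that carries BCR-ABL, and in its multidrug resistant derivative SupB15-MR. The genes were CEBPA, CEBPD, CEBPE, SPI1, LYZ, MPO, CD33, ANPEP, CD14 and CSF3R. They were followed on every probe set (a group of short oligonucleotides read as 1 value) that the platform table assigns to 1 of these genes alone. This gave 15 probe sets for 9 of the 10 genes, among 41097 probe sets of 19775 genes in all. CD33 had no probe set of its own in that table, and its expression was not analysed here. One array was available for drug sensitive SupB15 and 2 for SupB15-MR, called replicates 1 and 2, all grown in RPMI1640 medium with 10% FBS and no drug. SupB15-MR cells were obtained by the authors as survivors of mitoxantrone given in medium conditioned by the bone marrow stromal line HS-5, followed by months without drug. Replicate 2 carries the clone name MR5 in its label. The authors describe the SupB15-MR cultures as clones, and the drug, the conditioned medium and the selection of a clone cannot be told apart in this comparison.

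Myeloid and B lymphoid cells arise from common progenitors in the marrow. PU.1, the ETS factor encoded by SPI1, and the C/EBP family of basic leucine zipper factors switch on the myeloid programme, with C/EBP-alpha acting at the granulocyte and monocyte progenitor and C/EBP-epsilon late in granulocyte maturation. Enforced C/EBP-alpha can turn B cells into macrophages. Blasts of B-precursor ALL often carry a few myeloid antigens on their surface, among them CD13 (ANPEP) and CD33, while myeloperoxidase (MPO) is used to assign a leukemia to the myeloid lineage.

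The deposited values are on the log2 scale after RMA, so that a difference of 1 is 2-fold. A probe set was tested if any array lay above 3.47, the 20th percentile of all values, and was called at a limma adjusted p of at most 0.05 (Benjamini-Hochberg over all probe sets tested) together with at least 2-fold. SupB15 had 1 array and therefore no spread of its own, and the spread behind every p came from the SupB15-MR arrays. In 42.7% of all probe sets these arrays held identical values, which leaves limma with a very small expected variance. The SupB15-MR medians were 0.19 above that of SupB15. Control probe sets for 18S ribosomal RNA stood 6.57 to 7.84 above SupB15 in SupB15-MR. The gap between the 3' and the 5' control probe set of ACTB, a sign of RNA or amplification length, was 0.80 for SupB15, 2.59 for replicate 1 and 2.43 for replicate 2, while that of GAPDH was 0.098, -0.091 and -0.109. The medians of the hybridization spikes stood 2.82 and 2.34 above SupB15, and those of the poly(A) spikes 1.51 and 1.66. The shift of the medians was examined by centring each array, given below, and the part of the control differences in the values below was not tested.

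Of the 15 myeloid probe sets, 12 were tested and 3 lay at or below 3.47 in every array. CEBPA fell in SupB15-MR, LYZ and CEBPE rose on a single probe set each, and the other 9 did not pass. Across the array the share called was 22.8% of 46034 (13.1% higher, 9.71% lower), so that 3 of 12 is close to the background. Without any test, 4 myeloid probe sets (of CEBPE, LYZ, MPO and ANPEP) were 2-fold or more above SupB15 in each SupB15-MR array and 1 (CEBPA) as far below it. With median centring these counts were 1 and 2, and with quantile normalization 2 and 2. The background of that count was 33.2%, with 18.3% higher and 15% lower. The median log2 difference was 0.49 over the 12 and 0 over all probe sets tested. Of the 12, those of LYZ, ANPEP (234458_at) and CEBPD (213006_at) lay below 3.47 in SupB15 and entered the test through SupB15-MR alone, so that neither the count nor the median supports a shift.

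**Figure D1:**
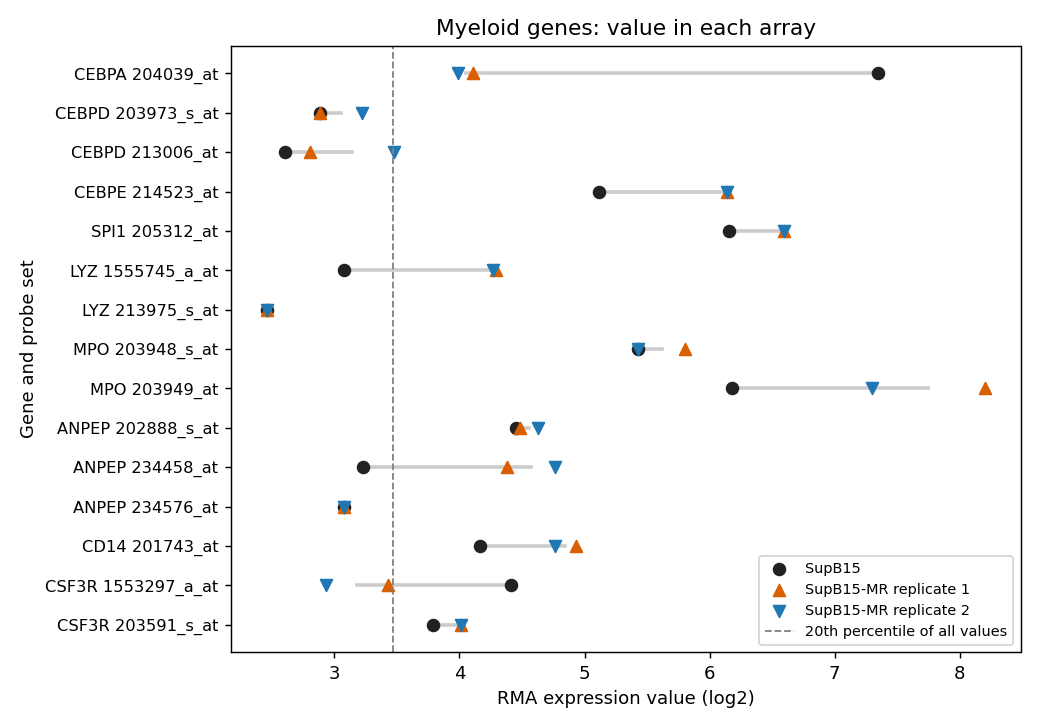
RMA expression value (log2, horizontal axis) of the 15 myeloid probe sets in SupB15 (circles) and in SupB15-MR replicates 1 and 2 (triangles), with a grey bar from the SupB15 value to the SupB15-MR mean and a dashed line at 3.47. CEBPA stands far below SupB15 in both SupB15-MR arrays, whereas MPO 203949_at stands above it in both.

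CEBPA, which encodes the factor that commits progenitors to the granulocyte and monocyte lineage, had the largest difference of the 15 probe sets. Its only probe set (204039_at) read 7.35 in SupB15, 4.11 in replicate 1 and 3.99 in replicate 2. The differences from SupB15 were -3.24 and -3.36, both far below it, and that of replicate 2 from replicate 1 was -0.12. The mean log2 difference was -3.30 (standard error 0.0882, adjusted p = 0.0161 from limma), or 9.83-fold lower. All 3 values stayed above 3.47. In RNA from whole cultures, fewer cells with the transcript and less transcript per cell cannot be told apart.

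CEBPE, the C/EBP factor of late granulocyte maturation, went the other way on its only probe set (214523_at). The value was 5.12 in SupB15 and 6.14 in each SupB15-MR array, a log2 difference of 1.02 (adjusted p = 0.000645 from limma). The difference lies just inside the 2-fold threshold. Both SupB15-MR values were identical, so that the standard error of 0.000612 reflects only the variance that limma expects. With each array centred on its median the difference was 0.83, under 2-fold, and the call was lost.

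The C/EBP factor of the acute phase and stress response, CEBPD, was at the bottom of the scale. Its probe set 203973_s_at read 2.89 in SupB15 and in replicate 1, and 3.22 in replicate 2. The other, 213006_at, read 2.61, 2.81 and 3.47, and its difference of 0.53 did not pass (adjusted p = 0.544 from limma). Its highest value barely exceeded the threshold, in replicate 2.

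SPI1 encodes PU.1, which both myeloid and B cells use, at different doses. Its probe set (205312_at) read 6.15 in SupB15 and 6.60 in each SupB15-MR array. The log2 difference of 0.44, or 1.36-fold, had a small adjusted p (0.000776 from limma, on identical SupB15-MR values) but was under 2-fold. It was 0.25 with median centring. The 2 transcription factors that passed therefore differed in direction, while SPI1 differed by less than 2-fold.

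The 250 bases before the transcription start of CEBPA and CEBPE are shown because these genes were called in opposite directions and C/EBP and PU.1 sites control many myeloid promoters. The sequences are from RefSeq on GRCh38.p14, 5' to 3' on the gene's strand, which is the minus strand for each gene shown here. Capitals mark the letters searched on both strands, TTGCNNAA for C/EBP and GAGGAA for PU.1 (TTNNGCAA and TTCCTC on the other strand). Of 35114 RefSeq promoter windows of this length, 9.05% hold the C/EBP letters and 23.6% the PU.1 letters. CEBPA lies at chr19:33302535-33302784 and CEBPE at chr14:23119256-23119505.
CEBPA: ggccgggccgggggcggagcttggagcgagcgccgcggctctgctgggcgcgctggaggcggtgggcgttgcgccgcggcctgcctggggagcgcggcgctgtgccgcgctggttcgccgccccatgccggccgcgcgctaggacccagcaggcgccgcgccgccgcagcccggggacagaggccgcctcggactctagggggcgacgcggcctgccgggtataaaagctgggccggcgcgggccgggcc
CEBPE: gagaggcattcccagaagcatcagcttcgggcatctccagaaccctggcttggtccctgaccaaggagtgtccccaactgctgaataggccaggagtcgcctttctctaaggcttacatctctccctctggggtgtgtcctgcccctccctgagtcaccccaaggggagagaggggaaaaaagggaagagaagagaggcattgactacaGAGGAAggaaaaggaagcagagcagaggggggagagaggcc
CEBPE holds the PU.1 letters once, at position -41 from the start, and does not overlap another match. CEBPA, of which 81.2% is G or C, holds neither set of letters in this window. A match is a description of the letters and not of a bound factor.

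MPO, the peroxidase of azurophil granules, was higher in SupB15-MR on 1 of its probe sets, with the widest gap between the replicates. On 203949_at the value was 6.18 in SupB15, 8.20 in replicate 1 and 7.30 in replicate 2. Both SupB15-MR arrays were at least 2-fold higher, by 2.02 and 1.12. The mean difference of 1.57 (2.97-fold, standard error 0.681) did not pass (adjusted p = 0.271 from limma). The replicates lay 0.90 apart, and only 0.739% of all probe sets tested were at least as far apart. The other probe set (203948_s_at) read 5.43 in SupB15, 5.81 in replicate 1 and 5.43 in replicate 2. It was not higher in replicate 2 than in SupB15, and its mean difference of 0.19 had an adjusted p of 0.687 (limma).

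LYZ, which encodes the lysozyme of granulocytes and monocytes, was called higher on 1555745_a_at. The value was 3.07 in SupB15, 4.29 in replicate 1 and 4.27 in replicate 2, a log2 difference of 1.21 (2.31-fold, standard error 0.0145, adjusted p = 0.00669 from limma). The SupB15 value lies below 3.47, so that the size of this rise is limited by the background. The other LYZ probe set, 213975_s_at, read 2.46 in all 3 arrays and was not tested. The rise was therefore seen on a single low probe set.

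CSF3R, the receptor of granulocyte colony-stimulating factor, was lower in SupB15-MR on 1 probe set. On 1553297_a_at it read 4.42 in SupB15, 3.43 in replicate 1 and 2.93 in replicate 2. The difference was -0.99 in replicate 1, just outside 2-fold, and -1.48 in replicate 2. The mean difference of -1.23 did not pass (standard error 0.374, adjusted p = 0.188 from limma), and both SupB15-MR values lay below 3.47. The other probe set (203591_s_at) read 3.79 in SupB15 and 4.01 in each SupB15-MR array, a difference of 0.22. The probe sets of CSF3R thus differed in sign, and neither was called.

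ANPEP, the aminopeptidase known as CD13, had 3 probe sets. On 234458_at the value was 3.23 in SupB15, 4.38 in replicate 1 and 4.76 in replicate 2, and the mean difference of 1.34 did not pass (standard error 0.291, adjusted p = 0.133 from limma). On 202888_s_at, where no array was below 3.47, the values were 4.46, 4.49 and 4.63, a difference of 0.10. The remaining one (234576_at) read 3.08 in all arrays. Only the probe set that started below 3.47 was 2-fold apart.

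CD14, the lipopolysaccharide co-receptor of monocytes, read 4.17 in SupB15, 4.93 in replicate 1 and 4.76 in replicate 2 on 201743_at. Both SupB15-MR values were higher, by 0.76 and 0.60, and the mean difference of 0.68 was under 2-fold (adjusted p = 0.112 from limma).

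The windows before the 2 RefSeq starts of CSF3R and before that of CD14 are shown for the same letters, since these receptors are textbook targets of C/EBP and PU.1. They lie at chr1:36483315-36483564, chr1:36482914-36483163 and chr5:140633176-140633425 on GRCh38.p14.
CSF3R, upstream start: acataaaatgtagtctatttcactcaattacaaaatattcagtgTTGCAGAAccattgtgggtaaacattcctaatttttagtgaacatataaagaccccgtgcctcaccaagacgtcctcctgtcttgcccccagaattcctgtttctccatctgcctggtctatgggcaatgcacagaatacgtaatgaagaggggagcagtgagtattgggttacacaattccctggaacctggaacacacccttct
CSF3R, downstream start: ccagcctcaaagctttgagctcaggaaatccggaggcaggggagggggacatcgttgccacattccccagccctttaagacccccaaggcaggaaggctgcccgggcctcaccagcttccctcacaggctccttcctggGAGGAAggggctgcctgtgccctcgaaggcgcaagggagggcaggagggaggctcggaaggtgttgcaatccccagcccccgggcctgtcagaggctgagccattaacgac
CD14: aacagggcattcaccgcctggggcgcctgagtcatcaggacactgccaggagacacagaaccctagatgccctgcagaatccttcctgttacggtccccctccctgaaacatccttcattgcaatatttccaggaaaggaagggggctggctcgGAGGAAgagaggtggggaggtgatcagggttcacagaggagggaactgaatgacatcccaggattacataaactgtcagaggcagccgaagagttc
The upstream CSF3R window holds the C/EBP letters at position -206 and the downstream window the PU.1 letters at -111. The CD14 window holds the PU.1 letters at -96. Both ANPEP windows hold neither.

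**Figure D2:**
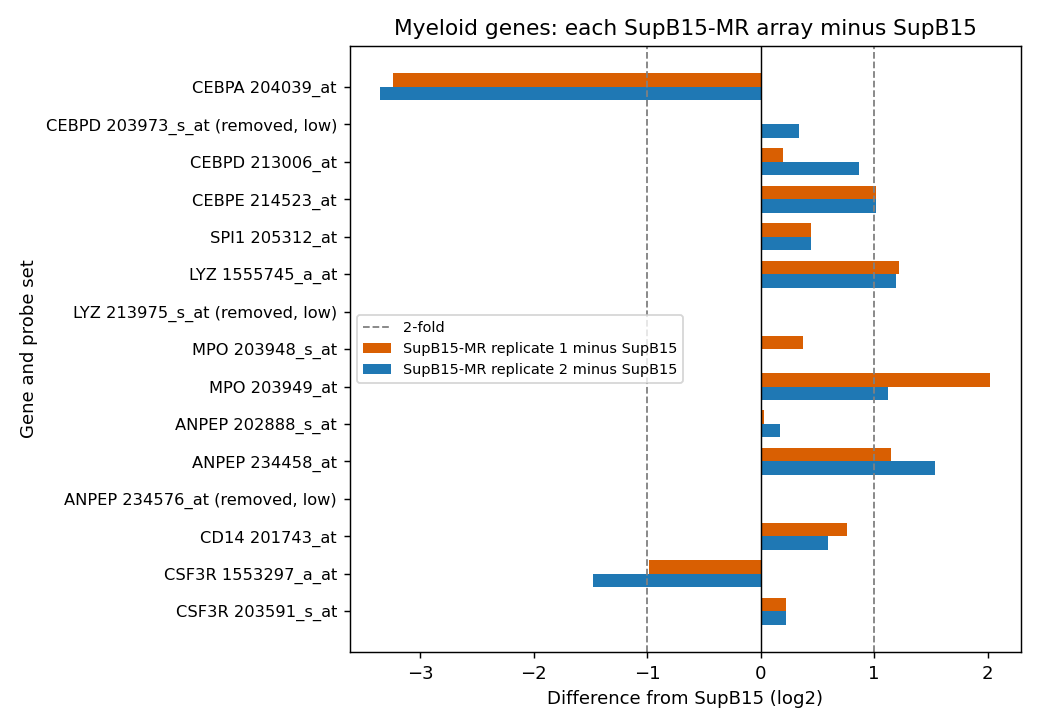
Difference of each SupB15-MR replicate from the SupB15 array (log2, horizontal axis) for the 15 myeloid probe sets, with dashed lines at 2-fold. Replicates 1 and 2 share the SupB15 array. They agree closely for CEBPA (-3.24 and -3.36) and lie apart for MPO 203949_at (2.02 and 1.12).

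The calls among the 12 probe sets depended on the variance that limma expects. When this was estimated only from probe sets whose SupB15-MR values differ, the share called over the array was 35.8% (19.6% higher, 16.2% lower), and 4 myeloid probe sets were called higher and 2 lower. The additions were MPO 203949_at (adjusted p = 5.95e-05 from limma), ANPEP 234458_at (2.65e-05) and CSF3R 1553297_a_at (0.000102). Median centring called 31.1% over the array (14.2% higher, 16.9% lower) and, among the myeloid probe sets, LYZ higher and CEBPA lower. CEBPA was called lower under every limma setting run, but not by the ANOVA named in the methods, which moderates no variance (adjusted p = 0.143).

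Other genes of the myeloid programme, 79 in 4 lists, moved in both directions. Of 62 tested, each on the probe set with the highest mean of the group means, 5 rose, 6 fell and 51 did not pass, against a background of 20.4% called among 17544 genes (10.6% higher, 9.81% lower). Among 7 relatives and regulators of the C/EBP factors, 1 rose and 6 did not pass, with a median difference of 0. That median is the value of TRIB2, whose probe set used read 4.69 in every array. Without a test, 2 of the 7 were 2-fold higher in both SupB15-MR arrays and 3 lower. Probe sets not used were called lower for TRIB2 (-1.46) and TRIB3 (-2.15). For TRIB1 they were called in both directions (1.51 and -1.07). The TRIB genes were named after their values were seen. CEBPZ, which carries the C/EBP name without being a leucine zipper factor, read 9.49 in SupB15 and 11.25 in each SupB15-MR array (difference 1.76, adjusted p = 0.000645 from limma). The remaining C/EBP factors on the list, described after their values were seen, did not pass. CEBPB, the factor of inflammatory gene expression, read 9.43 in SupB15 and 7.34 and 6.82 in SupB15-MR, a difference of -2.35 (adjusted p = 0.101 from limma). CEBPG had a difference of 1.91 (adjusted p = 0.088) on one probe set and of 0.05 on the other, and DDIT3, the stress-induced C/EBP partner CHOP, one of -1.38 (adjusted p = 0.176).

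Of 13 other transcription factors of myeloid cells, 1 rose and 1 fell, with a median difference of 0.28. Without a test, 3 of the 13 were 2-fold higher in both SupB15-MR arrays and 2 lower. The largest difference was that of SPIB (3.10, adjusted p = 0.135 from limma), with 0.71 on its other probe set. KLF4 (1.57) and IRF4 (-2.09) were also 2-fold apart in both arrays and not called. GFI1, a zinc finger repressor of granulocyte development, read 5.72 in SupB15, 7.96 in replicate 1 and 8.12 in replicate 2. Its log2 difference was 2.32 (standard error 0.127, adjusted p = 0.0337 from limma). ID2, an inhibitor of basic helix-loop-helix factors, read 8.15, 5.99 and 5.82, a difference of -2.25, and its other probe set had -2.26. Apart from ID2, probe sets not used were called higher for RARA (1.12) and lower for ZEB2 (-2.24). Another probe set of ZEB2 differed the other way, by 2.30, and was not called. SPIB, KLF4, IRF4, RARA and ZEB2 were named after their values were seen.

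Among 16 granule and secreted proteins none rose, 2 fell and 14 did not pass, and their median difference was 0. That 0 comes from AZU1, LTF, CAMP, S100A9 and FCN1, named after their values were seen, each with identical values in all 3 arrays. SRGN, the core protein of the proteoglycan that packs granule enzymes, read 10.67 in SupB15, 6.99 in replicate 1 and 6.78 in replicate 2 (difference -3.79, standard error 0.156, adjusted p = 0.0253 from limma). CTSG, the neutrophil protease cathepsin G, read 7.22 in SupB15 and 4.55 in each SupB15-MR array, a difference of -2.67. ELANE, the neutrophil elastase stored with MPO, read 4.17 in SupB15 and 4.08 in each SupB15-MR array. CTSG and the higher MPO probe set thus differed from SupB15 in opposite directions, although both proteins belong to the same granules.

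Of 26 receptors and signalling genes, 3 rose, 3 fell and 20 did not pass, with a median difference of -0.18. Apart from AIF1, probe sets not used were called lower for TLR4 (-1.92 and -3.185) and higher for FUT4 (2.62) and FCAR (1.04). The probe sets used for TLR4, FUT4 and FCAR had -0.74, -0.36 and 1.32, and none was called. AIF1, a calcium-binding protein of macrophages, read 6.25 in SupB15 and 10.33 and 10.05 in SupB15-MR (difference 3.94), but its other 3 probe sets did not share a direction, with 2 beyond 2-fold upward and 1 downward. CLEC7A, the beta-glucan receptor dectin-1, rose by 2.62, while none of its other 5 probe sets was 2-fold apart. TYROBP, the adaptor of many myeloid receptors, rose by 1.17 (adjusted p = 0.00265 from limma). This exceeds 2-fold by less than the shift of the SupB15-MR medians, 0.19. LY96, the TLR4 partner MD-2, had a difference of -1.97, MRC1, the mannose receptor, one of -1.93 and ITGB2, the leukocyte integrin beta chain, one of -1.58, with its other 2 probe sets less than 2-fold apart. CSF1R, the macrophage colony-stimulating factor receptor, read 6.47 in SupB15 and 4.38 and 3.97 in SupB15-MR, and its difference of -2.29 did not pass (adjusted p = 0.0841 from limma). TYROBP, ITGB2, ELANE, CSF1R, TLR4, FUT4 and FCAR were named after their values were seen.

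The B-lineage identity of the cells was checked on 17 marker genes with a probe set of their own, all above 3.47 in every array. CD79A, a signalling chain of the B-cell receptor, read 10.34 in SupB15 and 10.27 in each SupB15-MR array. On its other probe set the mean difference was -1.02, not called. PAX5, the factor that holds B-cell identity, read 10.63, 9.78 and 9.90. Its other probe set differed the other way, at 5.69, 7.37 and 7.62, and was not called. Of the 17, 1 rose (RAG2) and 4 fell (VPREB1, VPREB3, IGLL1 and CD24), with a median difference of -0.29, against 10.6% higher and 9.81% lower over all genes. VPREB1, part of the pre-B-cell receptor, read 10.49 in SupB15, 4.22 in replicate 1 and 3.94 in replicate 2. EBF1, BLNK and TCL1A were also 2-fold or more below SupB15 in both SupB15-MR arrays but were not called. Their mean differences were -1.50, -2.08 and -2.30, and another probe set of EBF1 differed the other way, by 1.94. RAG1 was 2-fold or more above SupB15 in both arrays (mean difference 2.03) and was not called. Probe sets not used for the list were called higher for RAG1 (5.86), DNTT (4.56), CD22 (2.37) and CD79B (1.30). For CD24 such a probe set was called lower (-1.45). The linear values summed over the 17 genes were 45830 in SupB15, 27860 in replicate 1 and 26820 in replicate 2.

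Markers of other cells stood beside these results. None of 7 NK-cell or 12 stromal markers was called on the probe set used. Over all genes 20.4% were called (10.6% higher, 9.81% lower), the share to set beside every list of this paragraph. Whether these short lists differ from it was not tested. Another probe set was called higher for COL1A1 (1.24) and lower for COL1A2 (-1.23). THY1, a surface glycoprotein of stromal and other cells, had the widest difference of the stromal list (8.14 in SupB15, 5.15 and 4.69 in SupB15-MR, adjusted p = 0.0657 from limma), and its other probe sets were called lower (-1.59 and -1.83). Of 10 T-cell markers CD3E fell (5.13 in SupB15 to 2.81 and 2.90). Both SupB15-MR values of CD3E lay below 3.47, so that it entered the test through SupB15 alone. The size of its fall is limited by the background. Of 9 erythroid and megakaryocyte markers GP1BA rose by 1.53 and EPOR had -1.47. However, 2 of the 4 remaining EPOR probe sets lay 2-fold or more above SupB15. The linear values summed over the tested genes were 676 for the stromal list in SupB15, of which THY1 was the largest part, and 424 and 410 in SupB15-MR. For the T-cell list, in which BCL11B, a zinc finger factor of T cells, had the largest difference (4.42 in SupB15, 7.96 and 6.97 in SupB15-MR, not called on this probe set but on another, at 1.01), they were 229, 425 and 303, for the NK-cell list 353, 320 and 318, and for the erythroid and megakaryocyte list 484, 386 and 391. EBF1, BLNK, TCL1A, VPREB3, IGLL1, CD24, THY1 and BCL11B, and SFTPC in what follows, were named after their values were seen. So were RAG1, DNTT, CD22, CD79B, COL1A1 and COL1A2.

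A list of genes that belong to other tissues, such as liver, heart, lung and testis, was read in the same way. Of 13 tested, 4 were called higher and none lower, against 10.6% higher and 9.81% lower over all genes, with a list median of 0.29. The differences of the 4 were 1.06 to 1.62. Of these 4, ALB and PRM1 lay below 3.47 in SupB15 and entered the test through SupB15-MR alone. ALB, the serum albumin of liver, read 2.08 in SupB15, 3.71 in replicate 1 and 3.68 in replicate 2, and none of its other 3 probe sets was 2-fold apart. SFTPC, a surfactant protein of lung, had a called difference of 1.06 on the probe set used and of 1.43 on another. A further probe set of SFTPC had one of -1.16, not called. With median centring 3 genes of this list were called higher and none lower.

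**Figure D3:**
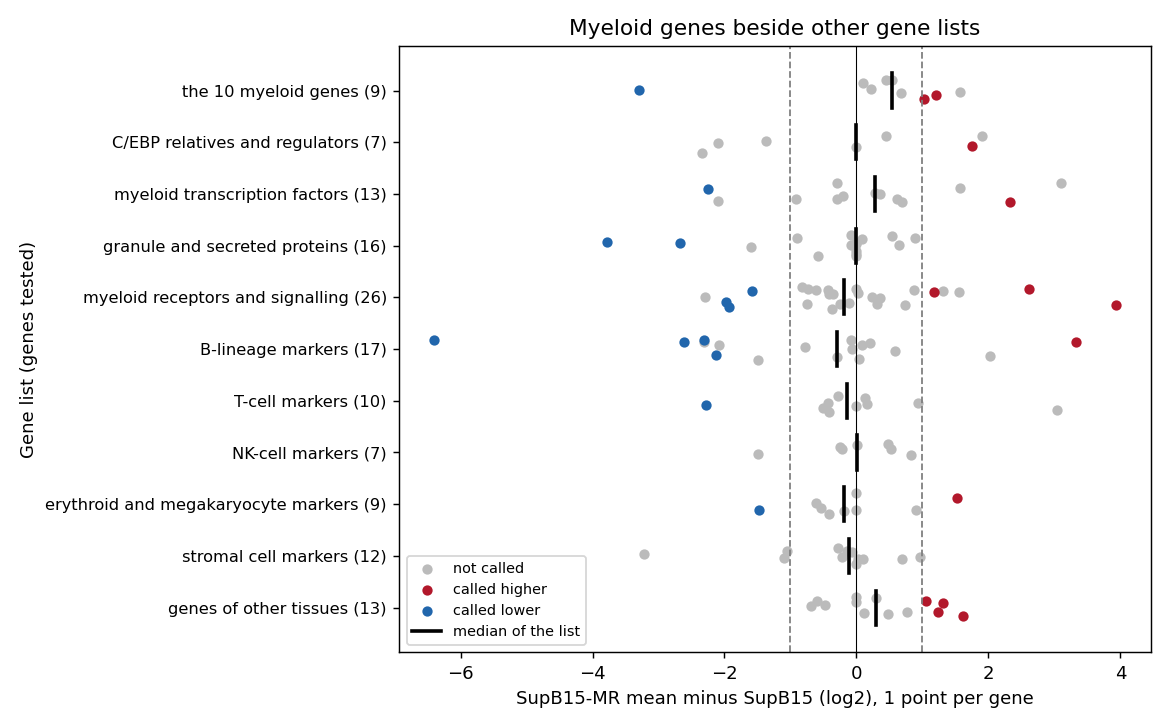
Log2 difference between the SupB15-MR mean and SupB15 for each tested gene of the myeloid genes and of the other lists, with the number tested in brackets, the list median as a black bar and dashed lines at 2-fold. Genes called higher are red and genes called lower blue. CEBPA is the blue point of the top row, and the called genes of other tissues lie between 1.06 and 1.62.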

How the data were processed

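Affymetrix arrays of SupB15 (1 array) and SupB15-MR (2 arrays) were analysed. The authors amplified and labelled total RNA with the NuGEN Ovation system and summarised probes by RMA in apt-probeset-summarize (version not given in the sources used here), and deposited log2 values for 54675 probe sets. The small number of arrays limits the precision. The labels call the SupB15-MR arrays biological replicates. Of the probe sets, 41097 have 1 gene, 1801 several and 11777 none in the platform table, and symbols were updated by gene identifier.

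A probe set was kept if at least 1 array exceeded 3.47, the 20th percentile of the whole table, as 46034 did. limma 3.58.1 in R 4.3.3 was fitted to these with 1 residual degree of freedom and Benjamini-Hochberg adjustment. Residual spread was set to 0 where both SupB15-MR values were identical (18289 probe sets). For the lists, each gene was read on its probe set with the greatest mean of the group means. An ANOVA, as named in the methods, was an alternative, with median centring, quantile normalization, other filters, other probe set choices and a variance prior from differing probe sets. The fit was also run on simulated data, with a spread taken from the SupB15-MR arrays. Such data cannot show how the fit behaves under the unknown spread of SupB15. The members, lists and rules were chosen with earlier results of these data known. Up to 4 called genes of each myeloid list and up to 2 of each other list, with the largest differences, were named, and others as stated. The letters searched in promoters were chosen after the values were seen.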

Additional observations from a re-analysis of the deposited data

How the results depend on the processing

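No paired analysis was possible because SupB15 has a single array with no replicate number. With median centring, 1 myeloid probe set was called higher (LYZ) and 1 lower, at least 2-fold apart in both arrays were 1 higher and 2 lower, and the other myeloid lists had 7 genes higher and 12 lower. With quantile normalization 2 probe sets were 2-fold higher and 2 lower. With the variance prior from differing probe sets, 4 probe sets were called higher and 2 lower, and in the other myeloid lists 10 genes higher and 12 lower (a setting added for these lists after the data were seen). By the median over a gene's probe sets, 9 of those genes were at least 2-fold higher and 12 lower. Over all probe sets tested, median centring called 31.1% and the prior from differing probe sets 35.8%, against 22.8% as reported. Higher counts in the lists under these settings are therefore no sign of a myeloid shift. Shares over all genes under these settings and by the median are not given. The ANOVA called 0 probe sets higher and 0 lower, of 27745 with differing values (9 of them myeloid); by the unadjusted p (0.05 or less, with 2-fold) it had 6778, CEBPA and LYZ among them. Without SupB15-MR replicate 1 or replicate 2, a value with no test, 4 were 2-fold higher either way and 1 to 2 lower, the second being CSF3R 1553297_a_at without replicate 1. Median centring turned the sign of MPO 203948_s_at (-0.003) and ANPEP 202888_s_at (-0.092), neither called, and quantile normalization did so too (-0.018 and -0.04). The filters on low values changed no count of myeloid probe sets called. Calls take no account of variation among SupB15 cultures.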
